A study of Mus musculus with 2 samples.

Results

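The nuclear genes for the subunits of the mitochondrial respiratory chain and ATP synthase were measured in 2 poly(A) RNA-seq libraries of mouse mammary gland. Members were protein-coding genes taken by symbol, namely the Nduf genes of complex I, the 4 Sdh genes of complex II, the Uqcr genes and Cyc1 of complex III, the Cox genes of complex IV, the Atp5 genes of complex V, and Cycs for cytochrome c. The symbol pattern found 82 such genes among 43346 in the tables, of which 37 belong to complex I, 4 to complex II, 9 to complex III, 14 to complex IV and 17 to complex V. Cox7a1 and Cox8b, muscle and brown fat isoforms of complex IV, were set aside by name, and the pattern does not take Cox4i1, Cox4i2 or Ndufab1. Both libraries belong to 1 group of C57BL/6J mice, an inbred strain, adult at 8 weeks, and each was made from glands pooled from male and female littermates, with no treatment named. The labels call them biological replicates 1 and 2, state no contrast and give no health or reproductive state, so no test between groups was possible and no p-value is given. Paired values are given for replicate 1 and then replicate 2, with levels in TPM, a unit that divides fragments by transcript length and library total, so that genes can be compared.

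The respiratory chain sits in the inner mitochondrial membrane. Complexes I and II pass electrons from NADH and succinate to ubiquinone, complex III passes them to cytochrome c, complex IV passes them to oxygen, and complex V, the ATP synthase, uses the resulting proton gradient to make ATP. Most subunits are encoded in the nucleus and imported, and the remaining catalytic ones are encoded by mitochondrial DNA. The mammary gland of an adult mouse is largely a fat pad crossed by epithelial ducts, and muscle and brown fat, which can lie next to it, are tissues rich in mitochondria that use their own isoforms of several complex IV subunits.

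The libraries held 56323489 and 42400470 expected fragments over genes, and the members took 1.55% and 1.38% of them. The labelled tissue was represented by 8 white adipocyte markers, which summed to 19601 and 36446 TPM. Cfd alone gave 13596 and 29051 TPM of this sum. By TPM, 5 of these markers favoured replicate 2, whereas Adipoq, Lep and Retn favoured replicate 1. Luminal markers, 7 in number, summed to 932 and 1730 TPM, with 6 favouring replicate 2 and Elf5 opposite. Basal markers, 5 in number, summed to 643 and 502 TPM, with 4 favouring replicate 1 and Oxtr opposite. Acta2 gave 476 and 353 TPM of the basal sum. Replicate 1 differed from replicate 2 in its content of muscle RNA. All 15 skeletal muscle markers were higher there, and they summed to 32218 and 25.2 TPM, with the muscle actin gene Acta1 at 11332 and 5.93 TPM. The 8 brown adipocyte markers summed to 1197 and 298 TPM, and of 7 with a mean of at least 1 TPM, 5 were higher in replicate 1 and 2 in replicate 2. The 4 cardiac muscle markers summed to 5.04 and 7.71 TPM, nearly all of it Tnni3, and Nppa and Myl7 were at or below 0.14 TPM in both. The share of the muscle RNA in the differences described below was not tested. In such bulk libraries, fewer cells of a type and less RNA per cell cannot be told apart.

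Of the 82 members, 80 had a mean of at least 1 TPM. The 2 others, Cox7b2 and Cox8c, paralogs of complex IV subunits, had 0 fragments in both libraries, a count that allows up to 3 fragments in each. The members summed to 33535 and 38160 TPM, averaging 35848 ± 3271 (SD, n = 2), or 3.35% and 3.82% of all TPM. Complex V had the largest sum, with 10586 and 12435 TPM. Complex IV followed with 7959 and 11976 TPM, complex I with 8755 and 7197 TPM, complex III with 5045 and 5805 TPM and complex II with 1185 and 745 TPM. By sum, complexes I and II were thus higher in replicate 1, and complexes III, IV and V in replicate 2. Most expressed members of complexes III, IV and V were nevertheless higher in replicate 1, at 5 of 9, 7 of 12 and 13 of 17. These were 55.6%, 58.3% and 76.5%, beside 46.8% of expressed protein-coding genes. In complexes III and IV the excess over that share rests on few genes. The difference of complex V rests largely on Atp5d, at 777 and 2498 TPM, and on Atp5b, whose TPM and counts differ in direction. Without Atp5b the sum of the complex was 6325 and 6597 TPM. With Atp5b counted by its coding transcripts alone, that sum was 7127 and 7230 TPM.

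The higher sum of replicate 2 was held by a few genes. The 5 members of highest mean TPM, Atp5b, Cox6a1, Cox8a, Uqcr11 and Atp5d, summed to 10653 and 20235 TPM and took 31.8% and 53.0% of the members' TPM. With Atp5b counted by its coding transcripts alone, the 5 took 23.9% and 45.6%. The other 77 members together were lower in replicate 2, at 22882 and 17925 TPM. Because the 5 were picked by their mean over these same 2 libraries, part of this split is fixed by the choice. Atp5d, at 777 and 2498 TPM, is among them through replicate 2, and in replicate 1 it lay below Atp5a1, at 1732 TPM. With mitochondrial genes left out of the total, the members' share was 4.06% and 3.99%, and with both mitochondrial and muscle marker genes left out and TPM rescaled, their sum was 42226 and 39866 TPM. The direction of the members' sum therefore changed with the scaling, and the sums by complex are given for unscaled TPM only.

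**Figure D1:**
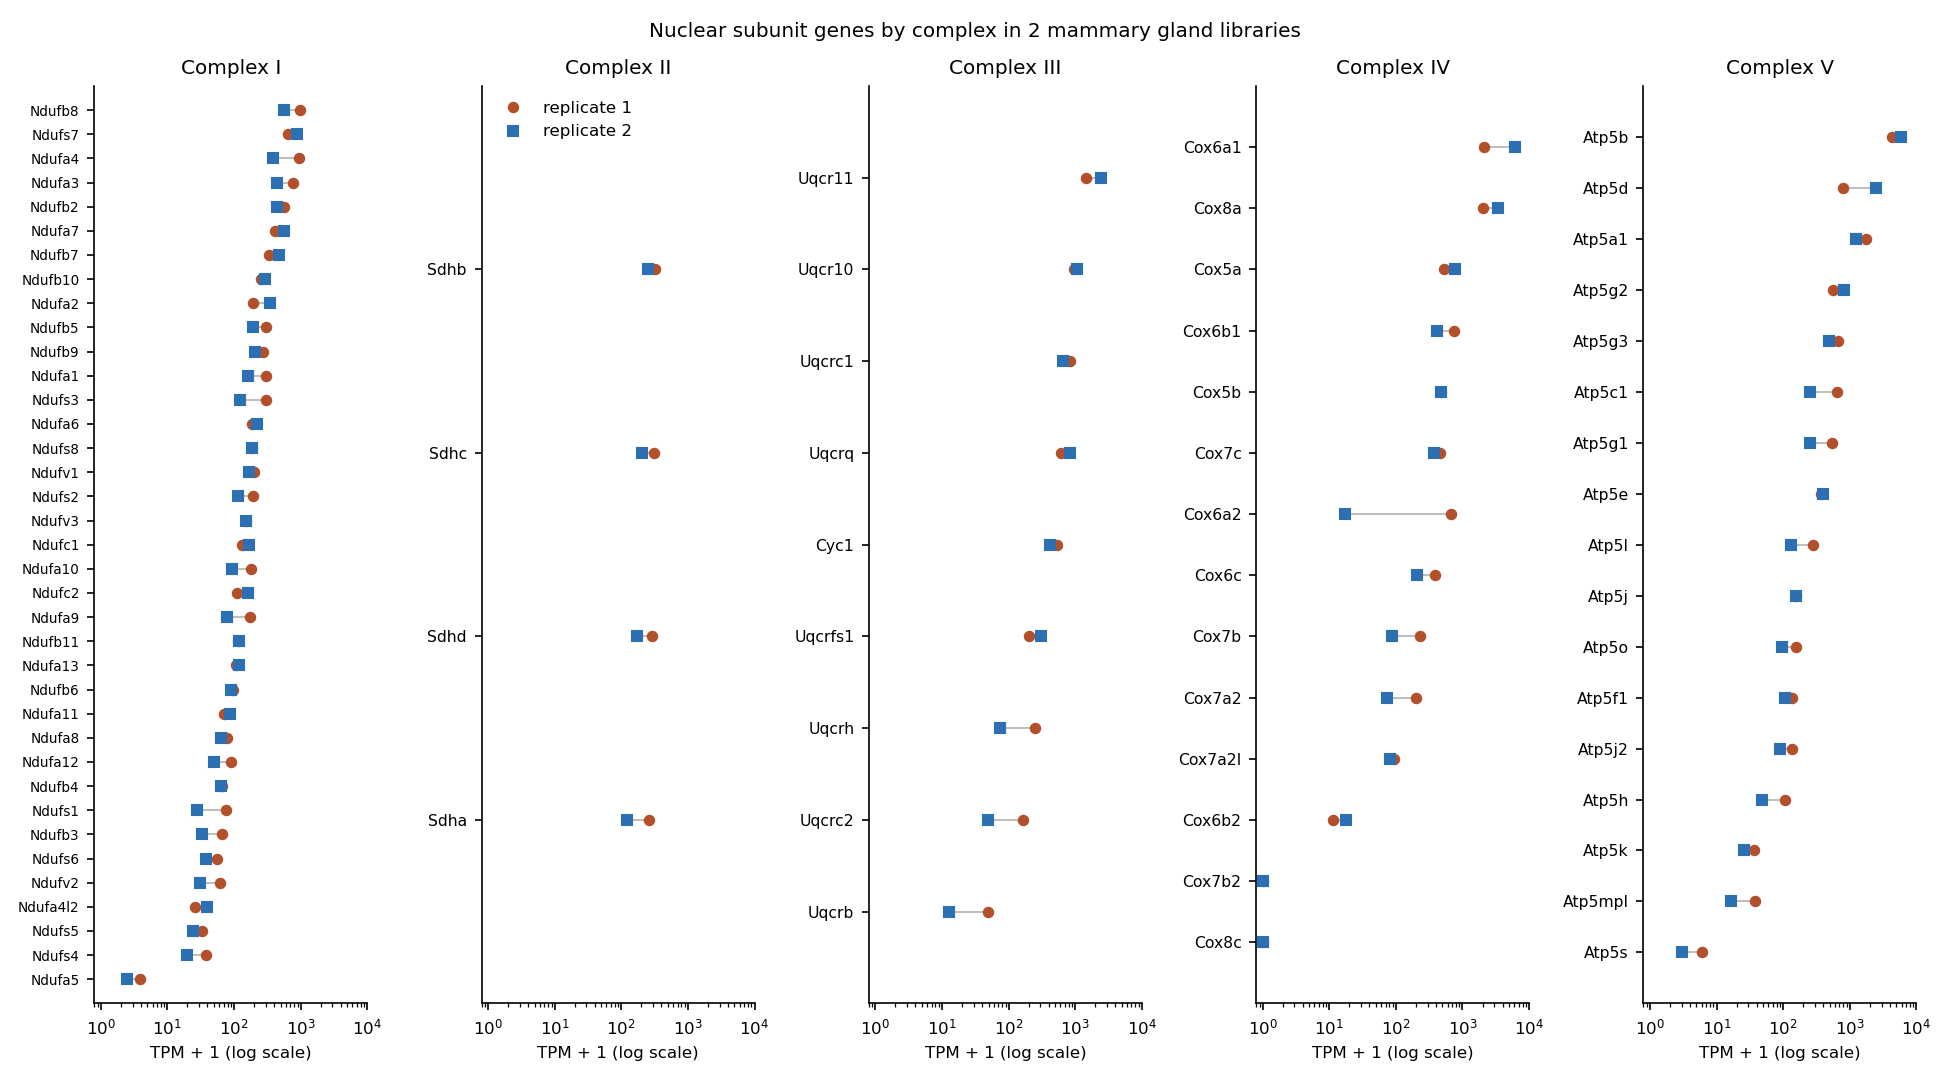
Level of each member as TPM + 1 on a logarithmic axis, by complex and in order of mean level, with a circle for replicate 1 and a square for replicate 2 (Cycs is not drawn). Within complexes I, III, IV and V the genes spread over more than 1 power of 10, and Cox6a2 has the widest gap between the libraries, at 677 and 16.3 TPM.

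A count ratio was taken for each gene from its expected fragments, scaled by total fragments, and a gene counted as beyond 2-fold when its whole 95% interval (Clopper-Pearson) was past that limit. Intervals cover counting error only. Of the 80 expressed members, 16 were beyond 2-fold higher in replicate 1, or 20%, where 8.97% of 13272 expressed protein-coding genes were (and 9.43% of all expressed genes). In the other direction 2 members, or 2.50%, were beyond 2-fold higher in replicate 2, where 8.66% of protein-coding genes were (8.73% of all). By TPM, 54 members, or 67.5%, were higher in replicate 1 and 26 in replicate 2, where 46.8% of protein-coding genes were higher in replicate 1 (47.6% of all). The median difference of log2(TPM + 1), replicate 2 minus replicate 1, was -0.41 over the members and 0.06 over protein-coding genes. For complexes I to V in order it was -0.37, -0.69, -0.33, -0.27 and -0.53. Just inside the limit lay Ndufa12, Atp5s and Atp5l, with upper bounds of -1.05, -1.06 and -1.08 for the log2 count ratio, and just outside lay Atp5mpl, Ndufb3 and Ndufs4, with upper bounds of -0.97, -0.96 and -0.96.

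In complex I, 24 of 37 members were higher in replicate 1 and 13 in replicate 2, with a median log2 difference of -0.37. The 7 core subunits of the matrix arm, which carry the flavin and the iron-sulfur clusters, summed to 1656 and 1521 TPM. Ndufs7, a core subunit near the ubiquinone site, was the highest of these, at 638 and 871 TPM, and was higher in replicate 2. Ndufs1, the largest iron-sulfur subunit, was at 75.4 and 27.2 TPM. It was beyond 2-fold higher in replicate 1, with 4573 and 1038 fragments and a log2 count ratio of -1.73 (-1.83 to -1.63). The flavin subunit gene Ndufv1 stood at 197 and 168 TPM and its partner Ndufv2 at 59.9 and 30.0 TPM, so the genes of 1 small module differed in level within each library. Ndufs8 was nearly level, at 185 and 187 TPM.

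The accessory subunits of complex I, which surround the core and do not carry electrons, included the complex's highest and lowest genes. Ndufb8, a membrane arm subunit (chromosome 19, 44548572 to 44555440 on mm10), led the complex at 990 and 565 TPM. Ndufa3 stood at 775 and 442 TPM. Both were higher in replicate 1, by less than 2-fold. The lowest were Ndufs5, at 32.1 and 23.5 TPM, Ndufs4, at 37.0 and 18.5 TPM, and Ndufa5 (chromosome 6, 24518666 to 24528013), at 2.93 and 1.45 TPM. For Ndufa5 these levels rested on 66 and 26 fragments. The highest mean in complex I was 355 times the lowest. Ndufa9 was beyond 2-fold higher in replicate 1, at 174 and 78.6 TPM. Ndufa12, at 90.0 and 49.3 TPM, was so by counts, with 1535 and 505 fragments and a log2 count ratio of -1.19 (-1.34 to -1.05). The largest difference in the other direction was that of Ndufa2, at 190 and 348 TPM.

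Ndufa4, named for complex I and now regarded as a complex IV subunit, stood at 937 and 390 TPM (chromosome 6, 11900292 to 11907497). It had 11379 and 3333 fragments, and its log2 count ratio of -1.36 (-1.42 to -1.31) put it beyond 2-fold higher in replicate 1. Its paralog Ndufa4l2, known to be induced by hypoxia, was at 25.2 and 37.9 TPM. The paralog thus took 2.61% and 8.86% of the pair's TPM, the larger share being in replicate 2.

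All 4 genes of complex II, the succinate dehydrogenase of the citric acid cycle, were higher in replicate 1. The flavoprotein gene Sdha (chromosome 13, 74322254 to 74350280) was at 260 and 122 TPM with 29048 and 9923 fragments. It was beyond 2-fold higher in replicate 1, with a log2 count ratio of -1.14 (-1.17 to -1.11). The iron-sulfur subunit gene Sdhb was at 322 and 249 TPM. The membrane anchor genes were at 313 and 202 TPM for Sdhc and at 291 and 172 TPM for Sdhd. Complex II was the most even of the complexes, its highest mean being 1.49 times its lowest.

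In complex III the small subunits Uqcr11 and Uqcr10 were highest, at 1452 and 2405 TPM and at 953 and 1063 TPM. Uqcr11 was higher in replicate 2, and the log2 count ratio of Uqcr10 of 0.04 (-0.01 to 0.08) was near 0. Of the 2 core proteins, Uqcrc1 stood at 844 and 654 TPM and Uqcrc2 at 165 and 47.7 TPM. Uqcrc1 was the higher of the pair in both libraries, and Uqcrc2 was beyond 2-fold higher in replicate 1, at a log2 count ratio of -1.87 (-1.94 to -1.80). The hinge protein gene Uqcrh, at 244 and 72.3 TPM, and Uqcrb, at 47.6 and 11.9 TPM, were beyond 2-fold higher in replicate 1 too, by 3.40-fold and 4.29-fold in scaled counts. The electron-carrying subunits went different ways by TPM. Cyc1, cytochrome c1, was at 529 and 421 TPM, and Uqcrfs1, the Rieske iron-sulfur protein, at 203 and 308 TPM.

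Cycs, the somatic cytochrome c that carries electrons from complex III to complex IV, was low in both libraries, at 4.77 and 2.00 TPM, with 573 and 163 fragments. It was called beyond 2-fold higher in replicate 1, with a log2 count ratio of -1.40 (-1.66 to -1.15). Of the read-length words of its leading coding transcript, 26.1% also occur in other annotated genes. Those genes summed to 37.8 and 8.20 TPM, more than Cycs itself, so how the fragments were divided between Cycs and its copies is uncertain. The testis form Cyct had 0 fragments in both.

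In complex IV, Cox6a1 and Cox8a, subunits of the liver-type and ubiquitous forms, were highest. Cox6a1 (chromosome 5, 115345642 to 115348981) had 2114 TPM in replicate 1 and 6089 TPM in replicate 2, averaging 4102 ± 2811 (SD, n = 2), rank 16 among protein-coding genes. It had 32975 and 66962 fragments and was beyond 2-fold higher in replicate 2, with a log2 count ratio of 1.43 (1.41 to 1.45). Cox8a was at 2048 and 3404 TPM, again higher in replicate 2. Cox5a stood at 534 and 760 TPM and its partner Cox5b at 468 and 468 TPM, without a difference to the nearest whole unit. Cox7b, at 228 and 86.9 TPM, and Cox7a2, at 199 and 72.1 TPM, were beyond 2-fold higher in replicate 1, with log2 count ratios of -1.49 (-1.56 to -1.42) and -1.55 (-1.64 to -1.46). Complex IV therefore held members beyond 2-fold in both directions.

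The paralogs of complex IV subunits showed the widest difference among the members. Cox6a2, the heart and skeletal muscle form of Cox6a (chromosome 7, 128205435 to 128206387), was at 677 and 16.3 TPM. It had 13061 and 222 fragments, a log2 count ratio of -5.47 (-5.67 to -5.28), or 44.3-fold higher in replicate 1. It took 24.2% of the Cox6a pair in replicate 1 and 0.266% in replicate 2. Outside the members, Cox7a1, also a muscle and brown fat form, stood at 140 and 14.7 TPM and took 41.4% and 17.0% of its pair with Cox7a2, and Cox8b stood at 695 and 361 TPM and took 25.3% and 9.60% of its pair with Cox8a. The 3 muscle and brown fat forms were thus all higher in replicate 1, the library with the muscle markers, but by different amounts, with log2 count ratios of -5.47 for Cox6a2, -3.36 for Cox7a1 and -1.06 for Cox8b. Of the brown adipocyte markers, 4 were beyond 2-fold higher in replicate 1, among them Ucp1, the uncoupling protein of brown fat, at 710 and 100 TPM, while Kcnk3, at 42.9 and 76.9 TPM, was higher in replicate 2. The part of either source in these values was not tested.

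The other paralogs lay at different levels. Cox6b2, the testis form, was at 10.2 and 17.1 TPM and took 1.37% and 4.03% of its pair with Cox6b1, which stood at 738 and 407 TPM. Cox7a2l, a supercomplex assembly protein related to Cox7a2, was at 93.4 and 81.2 TPM, below Cox7a2 in replicate 1 and above it in replicate 2. Cox4i1 stood at 897 and 882 TPM beside 4.94 and 5.26 TPM for Cox4i2, the lung form, so the pair was nearly level between the libraries.

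**Figure D2:**
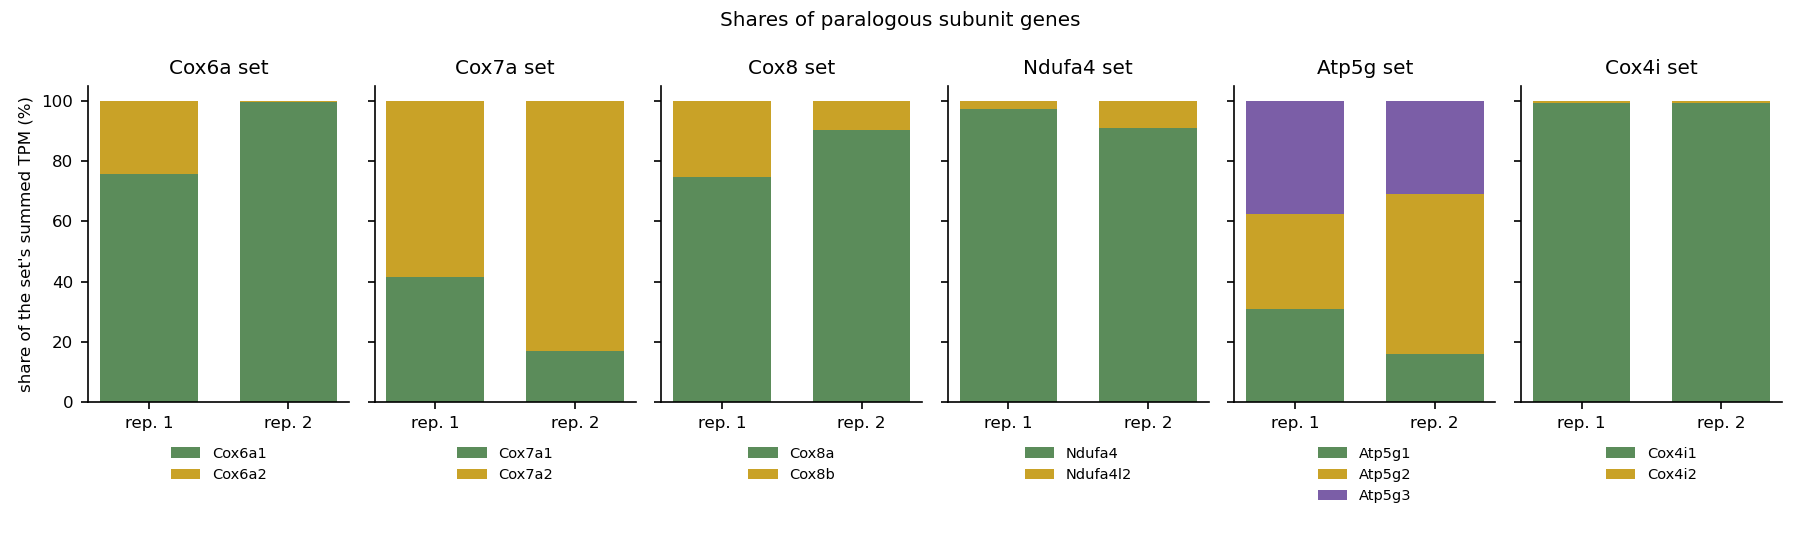
Share of each paralog in the summed TPM of its set, in percent, for 6 sets and both libraries; each bar is 1 library. Cox6a2 takes 24.2% of its set in replicate 1 and 0.266% in replicate 2, while the Cox4i pair is above 99% Cox4i1 in both.

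In complex V, the catalytic head F1 held the member with the highest mean TPM, although Cox6a1 was higher in replicate 2. Atp5b, the catalytic beta subunit (chromosome 10, 128083273 to 128090391), had 4261 TPM in replicate 1 and 5839 TPM in replicate 2, averaging 5050 ± 1116 (SD, n = 2), rank 14 among protein-coding genes. Its expected fragments were 152146 and 80088, and the log2 count ratio of -0.52 (-0.53 to -0.50) went the other way from TPM. The length over which its fragments were counted was 1038 and 660 nt. TPM and counts therefore gave Atp5b opposite directions. The alpha subunit gene Atp5a1 was at 1732 and 1232 TPM, higher in replicate 1 by both measures. Atp5d, the delta subunit of the central stalk (chromosome 10, 80138632 to 80145818), was at 777 and 2498 TPM. It had 23731 and 49092 fragments and was beyond 2-fold higher in replicate 2, with a log2 count ratio of 1.46 (1.44 to 1.48). Atp5c1, the gamma subunit of the same stalk, went the opposite way, at 636 and 255 TPM with a ratio of -1.37 (-1.40 to -1.33), beyond 2-fold higher in replicate 1. The epsilon subunit gene Atp5e was nearly level, at 373 and 394 TPM.

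The c-ring of complex V, the rotor in the membrane, is built from 1 protein encoded by 3 genes. Atp5g1 was at 543 and 249 TPM, Atp5g2 at 560 and 824 TPM and Atp5g3 at 663 and 481 TPM. Their sum of 1767 and 1555 TPM moved less than its parts. Atp5g2 took 31.7% and 53.0% of it, Atp5g1 30.7% and 16.0% and Atp5g3 37.5% and 31.0%. Atp5g3 was thus the leading gene in replicate 1 and Atp5g2 in replicate 2. Of the read-length words of Atp5g2 and Atp5g1, 86.9% and 59.3% also occur in pseudogenes, which summed to 43.2 and 11.3 TPM and to 37.0 and 22.2 TPM.

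The 4 genes of the peripheral stalk, which holds the head still, summed to 554 and 401 TPM. Atp5h, subunit d, was beyond 2-fold higher in replicate 1, at 107 and 47.4 TPM with 1992 and 612 fragments. Atp5j, coupling factor 6, was nearly level at 156 and 152 TPM. Of the small membrane subunits, Atp5l was beyond 2-fold higher in replicate 1, at 276 and 131 TPM. Atp5k and Atp5mpl were among the lowest, at 35.7 and 24.4 TPM and at 36.7 and 15.5 TPM. The lowest was Atp5s, named as coupling factor B, at 5.08 and 2.00 TPM with 279 and 78 fragments, which was beyond 2-fold higher in replicate 1. The highest mean in complex V was 1427 times the lowest.

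Promoters of the members were searched for motifs of factors known to drive respiratory genes. The search used the 250 bases before the RefSeq start (GRCm38.p6) on both strands, and found a promoter for 65 of the 82 members. A gene counted when any of its promoters held the motif, with 70 promoters for the 65 members and 13256 for 10325 expressed protein-coding genes. The median GC content of these promoters was 56.2% for members and 59.6% for expressed genes, and the shares below are not adjusted for either difference. The palindrome of nuclear respiratory factor 1, GCGCATGCGC, occurred in 4 members, Atp5g2, Atp5k, Cox6a1 and Ndufa11, or 6.15%, beside 1.73% of expressed protein-coding genes and 0.877% of all genes with a promoter. They are shown because they hold the complete palindrome, which is in capitals, on the strand of the gene.
Atp5g2, chr15:102671070-102671099, minus strand: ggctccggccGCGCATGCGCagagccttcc
Atp5k, chr5:108434430-108434459, minus strand: tttcactgcgGCGCATGCGCctttctggct
Cox6a1, chr5:115348982-115349129, minus strand: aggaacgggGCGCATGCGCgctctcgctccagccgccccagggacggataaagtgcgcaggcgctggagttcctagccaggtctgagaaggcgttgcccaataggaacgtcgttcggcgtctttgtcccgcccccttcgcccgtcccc
Ndufa11, chr17:56717686-56717761, plus strand: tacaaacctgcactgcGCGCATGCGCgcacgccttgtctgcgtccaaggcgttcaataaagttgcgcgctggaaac
The palindrome began 42 bases before the start in Atp5g2, 50 in Atp5k, 162 in Cox6a1 and 60 in Ndufa11. In Atp5g2 and Atp5k it overlaps an exon of the same gene in GENCODE M21, whose start lies further upstream than that of RefSeq.

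With its central base left free, GCGCNTGCGC, which includes the palindrome, the motif occurred in 13 matched members, or 20%, beside 8.59% of expressed protein-coding genes. The ETS motif CCGGAAG, bound by the nuclear respiratory factor 2 complex, occurred in 12 members, or 18.5%, beside 14.6%. The GC box GGGCGG was in 35.4% of members and 62.8% of expressed genes, and CCAAT in 44.6% and 39.5%. TATAAA was found in 9.23% and 8.27%. A motif for YY1, AAGATGGCG, was in 1 member, Atp5j, or 1.54% beside 1.29% of expressed genes, and a motif for estrogen-related receptors, TCAAGGTCA, in 1 member, Atp5g3, or 1.54% beside 0.320%. Of the 4 members with the palindrome, Cox6a1, Atp5g2 and Ndufa11 (69.2 and 86.0 TPM) were higher in replicate 2 and Atp5k in replicate 1. The 4 genes therefore went different ways, and a match is a string of letters, not a measured site.

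Differences between the libraries moved with the GC content of the transcripts. Across the 80 expressed members, GC content and the log2 difference had a Spearman rho of 0.635 and a Pearson r of 0.522, beside 0.594 and 0.454 across 13271 protein-coding genes. These are correlations across genes within 1 pair of libraries, and genes are not independent replicates. Of the 27 members of lowest GC content, 39.0% to 50.1%, 23 were higher in replicate 1, at a median log2 difference of -0.96, where protein-coding genes in the same range had -0.41. Of the 26 in the middle, 21 were higher in replicate 1, with a median of -0.60 beside 0.07. Of the 27 of highest GC content, up to 61.3%, 10 were higher in replicate 1 and 17 in replicate 2, at a median of 0.21 beside 0.58. In each of the 3 ranges the members' median was lower than that of protein-coding genes.

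The trend bore on which members were called. With the median log2 ratio at each GC content subtracted from the count ratios, 6 members were beyond 2-fold higher in replicate 1, beside 4.13% of protein-coding genes, and 0 higher in replicate 2, beside 6.07%. Cox6a2, Cox7a2, Uqcrh and Uqcrc2 stayed beyond 2-fold, while Atp5g1 and Atp5b, the latter higher in replicate 2 by TPM, were added. The upper bound of Atp5b was -1.01, close to the limit. Its GC content of 57.5% is weighted by TPM over its transcripts, and the coding Atp5b-201 has 51.6%, so that call depends on the division among transcripts. Cox6a1 and Atp5d, the members higher in replicate 2, have GC contents of 58.9% and 61.3%, and their log2 count ratios became 0.73 and 0.40. The GC contents of Ndufs1, Uqcrb and Cycs are 43.6%, 42.2% and 41.0%, and their log2 count ratios became -0.95, -1.23 and -0.41. The median log2 TPM difference over all members was -0.55 with the trend removed, and that of complex IV was -0.02. Cox6a2 hardly moved, at -5.47.

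**Figure D3:**
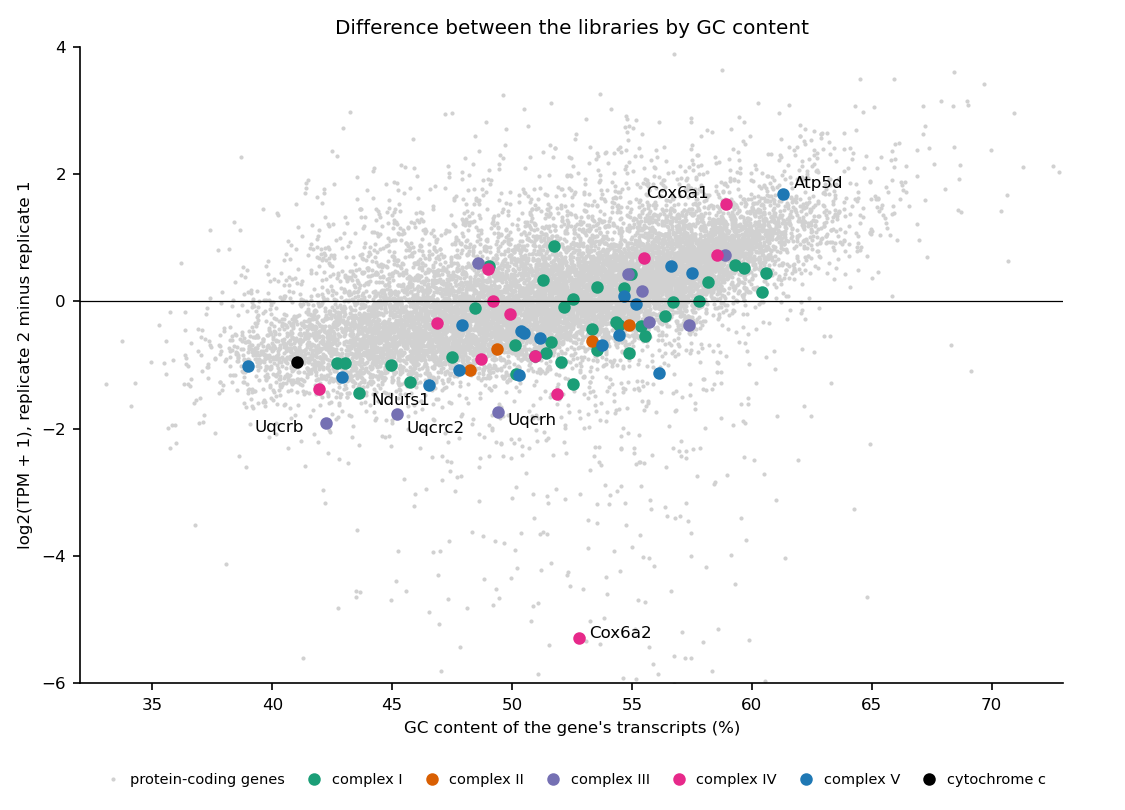
Difference of log2(TPM + 1), replicate 2 minus replicate 1, against the mean GC content of the gene's transcripts in percent, for the 80 expressed members by complex and for protein-coding genes in grey (39 of which lie outside the axes). Points above 0 are higher in replicate 2; most members lie below the middle of the grey cloud at their GC content, and Cox6a2 lies far below it.

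The tables also divide each gene among its annotated transcripts. Protein-coding transcripts took 82.3% and 81.4% of the members' TPM, retained-intron transcripts 11.6% and 7.01%, and other types 6.05% and 11.6%. Counting coding transcripts alone, 54 members were higher in replicate 1 and 26 in replicate 2, with a median log2 difference of -0.45. The split equals that by gene TPM, but single members changed sides. Ndufb10 (207 and 41.5 TPM on coding transcripts) and Atp5b turned to replicate 1, and Ndufs3 (65.7 and 113 TPM) and Atp5j to replicate 2. In 3 members, Atp5b, Atp5a1 and Ndufs1, coding transcripts took less than 50% of TPM in both libraries. For Atp5b the retained-intron transcript Atp5b-205 took 49.1% and 18.4%, and Atp5b-207, a processed transcript of 343 nt, took 27.9% and 70.3%. The full coding transcript Atp5b-201 stood at 803 and 634 TPM. That transcript, like the gene's counts and unlike its TPM, was higher in replicate 1. On coding transcripts Atp5b lay below Cox6a1, which had 2073 and 6002 TPM.

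Among 53 members that have several transcripts and reach 5 TPM in each library, 5 had a different leading transcript in each, or 9.43%, beside 24.0% of 6906 genes. These were Atp5b, Atp5d, Ndufa10, Ndufb10 and Ndufs3. In Atp5d both leading transcripts are coding, Atp5d-201 with 86.7% and 45.6% and Atp5d-202 with 12.1% and 53.8%. Ndufb10-201, the coding form, took 82.2% and 14.3%, and the retained-intron form Ndufb10-202 took 16.5% and 84.9%. In Ndufs3 the processed transcript Ndufs3-206 led in replicate 1 with 70.9% and was listed at 0 in replicate 2, where the coding Ndufs3-201 took 91.6%. In Ndufa10 the retained-intron Ndufa10-206 took 40.1% and 47.5%, and the coding Ndufa10-201 took 35.3% and 50.5%. A further retained-intron form, Ndufa10-204, took 22% in replicate 1 and was listed at 0 in replicate 2. Such shares are estimates from short reads that several transcripts share, and their error is not given in the tables.

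Atp5c1 has an exon of 37 nt near its end (chromosome 2, 10056770 to 10056806 on mm10) that is known to be skipped in heart and skeletal muscle. Transcripts with the exon stood at 135 and 95.6 TPM, and the transcript without it, Atp5c1-201, at 501 and 159 TPM. The form with the exon thus took 21.3% and 37.5% of the gene, the lower share being in the library with the muscle markers. Most of the difference of Atp5c1 between the libraries lay in the form without the exon.

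**Figure D4:**
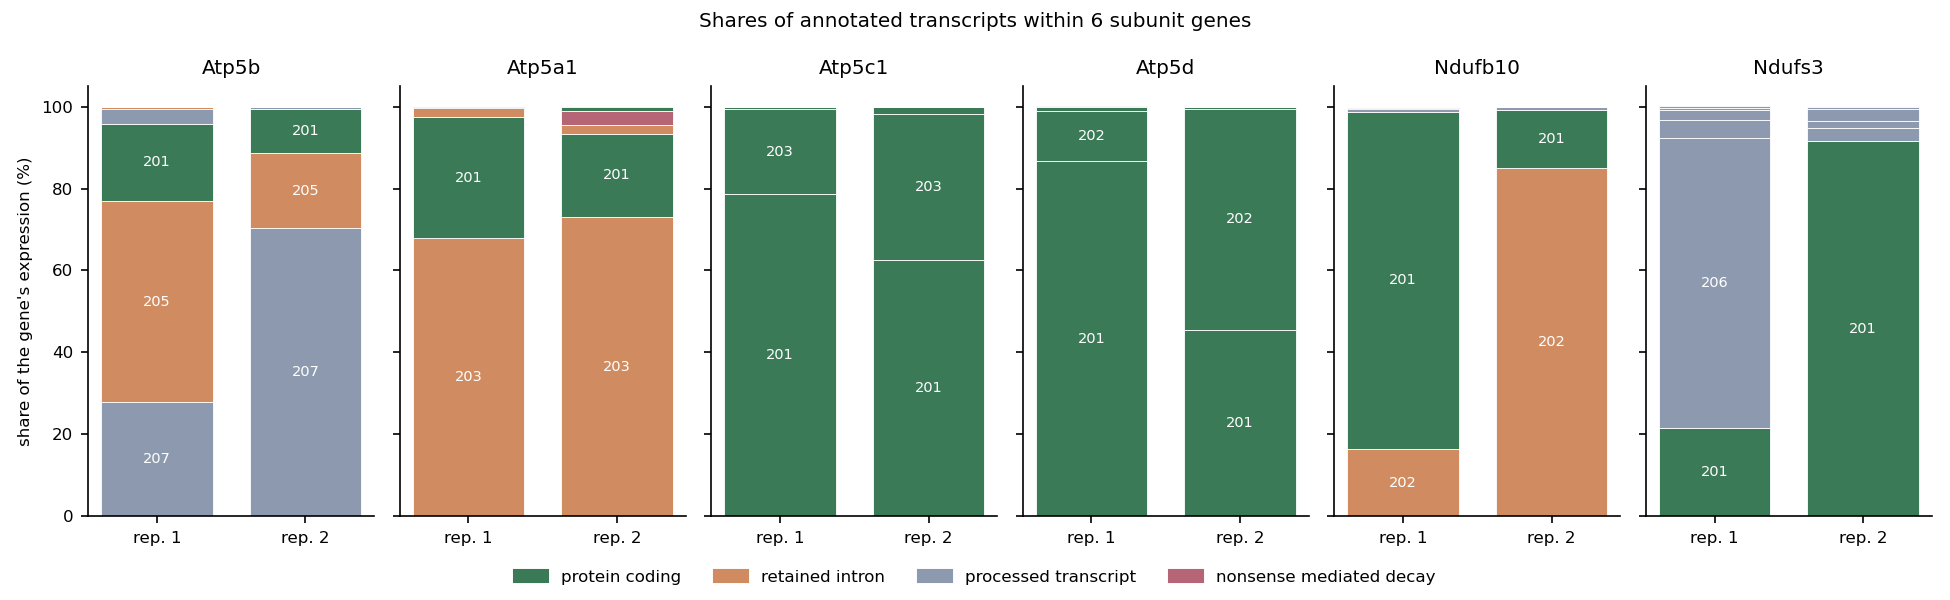
Share of each annotated transcript in its gene's expression, in percent, for 6 members and both libraries; numbers in the bars are transcript names and colours are GENCODE types. Atp5a1 keeps a retained-intron transcript as its leading form in both libraries, and Ndufb10 and Ndufs3 change their leading type.

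Read-length words of 76 nt show where copies of a gene could take its fragments. Words were taken from the leading coding transcript of each member only, so other transcripts, such as Atp5b-207, were not searched. No such word was shared with another annotated gene in 54 of the 82 members, and 28 shared some. More than 50% of words were shared in 4 members, Atp5g2, Atp5l, Atp5g1 and Cox7c. Ndufb4 stood at 66.2 and 62.6 TPM, but its pseudogene Ndufb4c, which holds 35.2% of its words, was given 423 and 414 TPM. Ndufa12 stood at 90.0 and 49.3 TPM beside 144 and 66.2 TPM for its pseudogene Gm15920. The levels of Ndufb4, Ndufa12 and Cycs are therefore uncertain, and those of Ndufa5 and Atp5s, the other lowest members, share no words with another gene.

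The 13 subunits encoded by mitochondrial DNA, which join these proteins in complexes I, III, IV and V, summed to 172740 and 42558 TPM. All 13 were beyond 2-fold higher in replicate 1, with a median log2 difference of -1.99. The highest was mt-Co1, the catalytic subunit of complex IV, at 57397 and 13167 TPM, and the lowest was mt-Nd6, at 143 and 45.1 TPM. The summed level of the nuclear members over that of the mitochondrial subunits was 0.194 in replicate 1 and 0.897 in replicate 2. By complex the ratio was 0.524 and 1.71 for complex I, 0.440 and 1.93 for complex III, 0.0767 and 0.572 for complex IV and 0.259 and 0.864 for complex V. The nuclear share was lower in replicate 1 in each of these 4 complexes, and complex IV had the lowest ratio in both libraries. Of the mitochondrial sum of complex V, mt-Atp8 held 26443 and 11301 TPM on 3894 and 994 fragments. The other gene, mt-Atp6, had 14425 and 3092 TPM on 292786 and 44390 fragments. The ratios for all members and for complex V thus lean on mt-Atp8, and both would be higher without it. In replicate 2, mt-Atp6 alone lay below the nuclear sum of complex V, at 12435 TPM. The mitochondrial subunits have a median GC content of 37.1%, below that of every expressed member.

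**Figure D5:**
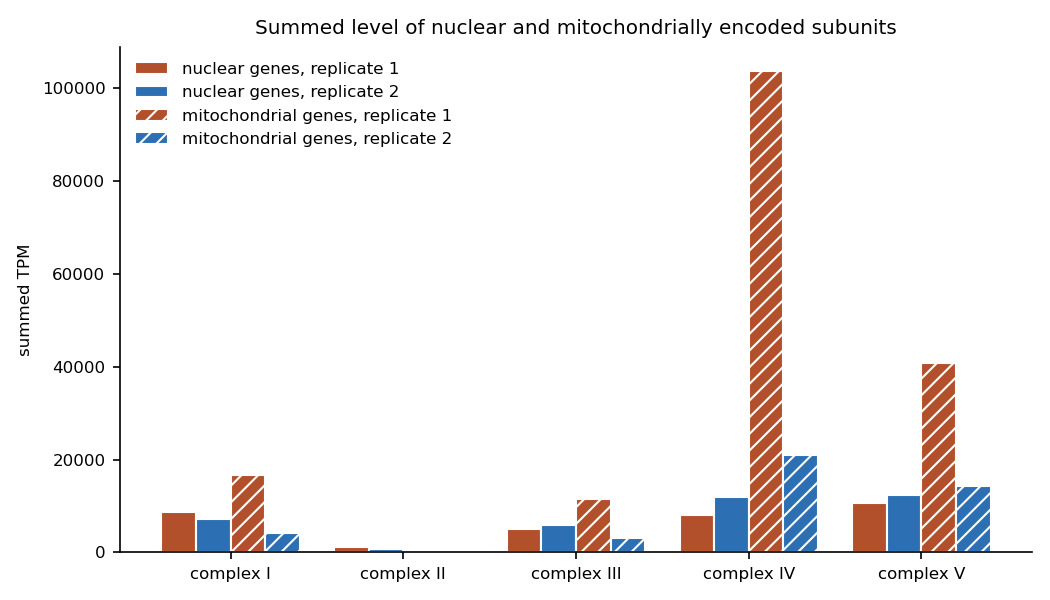
Summed TPM of nuclear members (plain bars) and mitochondrially encoded subunits (hatched bars) of each complex, in replicate 1 and replicate 2. The hatched bars are taller in replicate 1 in complexes I, III, IV and V, while the plain bars differ far less, and complex II has no mitochondrially encoded subunit.

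By TPM, other genes of the pathway had medians near that of all genes. Of 45 assembly factors, proteins that help build the complexes, 43 had a mean of at least 1 TPM. Of these, 4 (Tmem126b, Sdhaf4, Uqcc1 and Coa5) were beyond 2-fold higher in replicate 1 and 3 (Ndufaf8, Sdhaf1 and Coa6) in replicate 2, or 9.30% and 6.98%, near the shares of all protein-coding genes, with a median log2 difference of -0.02. The highest were Cox14 at 159 and 271 TPM, Coa3 at 137 and 269 TPM (but 2788 and 1788 fragments, a log2 count ratio of -0.23) and Uqcc2 at 111 and 110 TPM. Among 13 regulators of respiratory genes the median was -0.06. By log2 count ratio, the medians were -0.23 for assembly factors and -0.17 for regulators, beside -0.06 for all expressed genes and -0.53 for the members. The highest regulators were the receptor gene Esrra at 59.2 and 102 TPM, the mitochondrial RNA polymerase gene Polrmt at 39.9 and 65.9 TPM and Nrf1 at 28.1 and 22.0 TPM. Nrf1 had 2227 and 1787 fragments and a log2 count ratio of 0.09 (0.001 to 0.18), opposite in direction to its TPM. Ppargc1a, the coactivator PGC-1 alpha, at 4.39 and 1.38 TPM, and Tfb1m, at 2.60 and 0.56 TPM, were beyond 2-fold higher in replicate 1, and Yy1, at 5.45 and 42.7 TPM, in replicate 2. Ndufab1, the acyl carrier protein of complex I, was beyond 2-fold higher in replicate 2, at 361 and 1160 TPM.

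Across the 80 expressed members, log2(TPM + 1) in the 2 libraries had a Pearson r of 0.912 and a Spearman rho of 0.889, beside 0.880 and 0.880 across protein-coding genes. The order of the members was thus largely kept, while the gap between the libraries differed from gene to gene. TPM and scaled counts differed in sign for 6 of 77 members with more than 100 fragments in both libraries, or 7.79%, near the 8.45% of 12322 genes. They were Atp5b, Atp5e, Atp5j, Cox5b, Ndufb11 and Ndufs8. For Atp5b the log2 TPM difference was 0.45 and the log2 count ratio -0.52, and among the other 5 the largest TPM difference was 0.08, for Atp5e.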

How the data were processed

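Gene and transcript tables on mm10 with GENCODE M4 were used as the authors deposited them, per the text notes beside them. Per the labels, libraries were stranded, with paired reads of 76 nt from rRNA-depleted poly(A) RNA longer than 200 nt. Per the file headers, the authors deposited expected counts and TPM, and for each transcript its percent of the gene's expression. No source used here names the aligner or the quantifier.

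Symbols, types, coordinates and GC content (TPM-weighted over transcripts) came from GENCODE M21, which named 42462 genes. Expected counts were rounded for count ratios and 95% Clopper-Pearson intervals, which do not cover differences between animals. The filter was a mean of 1 TPM, the pseudocount 1, and the GC trend was a median in 20 bins of protein-coding genes. The code was tested on simulated counts. Promoters came from RefSeq, and read-length words from GENCODE M21 transcripts.

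The members, lists, motifs and alternatives were chosen with earlier results of these data known. Genes were named by rule: the 3 highest and 3 lowest of each complex, every member beyond 2-fold, the paralog sets, Cycs, Cyc1, the Sdh genes, members whose leading transcript differed, and the 3 highest of each outside list; others named (Ndufa2, Ndufa3, Ndufa11, Ndufb3, Ndufb4, Ndufb11, Ndufs8, Ndufv1, Ndufv2, Uqcrfs1, Cox5b, Cox7c, Atp5e, Atp5j, Ndufab1, Cyct, single cell type markers and the called outside genes) were added after their values were seen. Alternatives used TMM factors from edgeR 4.0.16 (1.03 and 0.975), DESeq2 1.42.0 size factors (1.21 and 0.829), other limits, filters and pseudocounts, posterior mean TPM as deposited, rescaling, GC removal, and each replicate left out. Tools were Python 3.11.15 and R 4.3.3. Contigs and junctions on mm9 were not used here.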

Additional observations from a re-analysis of the deposited data

How the results depend on the processing

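Counts beyond 2-fold depended on the reference chosen. The count higher in replicate 1, with the share of protein-coding genes called in the same way, was 16 (8.97%) by total counts, 14 (7.71%) with TMM factors, 12 (6.83%) with DESeq2 size factors, 26 (13.3%) with mitochondrial and muscle genes left out of the totals, 35 (20.8%) at a 1.5-fold limit and 6 (4.13%) with the GC trend removed. The count higher in replicate 2 was 2 by total counts (8.66%), TMM factors (9.98%) and DESeq2 size factors (11.2%). It was also 2 with mitochondrial and muscle genes left out (6.00%), 5 (19.0%) at 1.5-fold and 0 (6.07%) with the GC trend removed. Rescaling TPM without mitochondrial and muscle genes moved the median of all protein-coding genes from 0.06 to -0.18, that of all members from -0.41 to -0.68, of complex I to -0.64, of complex III to -0.60 and of complex IV to -0.54, and the mean summed TPM to 41046; it also turned the direction of the sum, to 42226 and 39866 TPM. GC removal moved complex III to -0.69 and complex IV to -0.017. Counting Atp5b by its coding transcripts or leaving it out, alternatives added after the values were seen, gave mean sums of 31516 and 30798 TPM, higher in replicate 2 either way. Leaving out each replicate gave sums of 33535 and 38160 TPM. The cause of these shifts was not tested. With 2 libraries, a spread of 2 values gives little measure of stability. No paired analysis was possible because both libraries belong to 1 group. The 3 lowest expressed members, Ndufa5, Cycs and Atp5s, rest on at most 573 fragments in a library.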
